A study of Rattus norvegicus with 3 samples.

Results

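The glucocorticoid receptor (GR) is a nuclear receptor that rests in the cytoplasm until it binds a steroid, then enters the nucleus and binds DNA. It acts on genes from sites near their starts and from sites many kilobases away, both directly and tethered to other factors. In heart muscle it is known for effects on contraction, calcium handling, metabolism and growth. The 886 GR regions described here lie more than 1 kb upstream of the start of their nearest gene. They were taken from a deposited sheet of 8514 distinct regions and made up 10.4% of them. For each region the row with the smallest distance to a gene start was kept, and a region was a member when that distance was below −1000 bases.

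Expression came from neonatal rat ventricular myocytes, heart muscle cells of 1-day-old Sprague Dawley pups isolated by enzyme digestion, enriched over Percoll and by preplating, and kept without serum. Dexamethasone (Dex), a glucocorticoid drug, was given at 100 nM for 1 h or for 24 h, and ethanol alone served as the control. There were thus 3 groups of 1 sample, with 2 libraries named in each title. In the absence of replicate values no spread could be computed and no test between groups was run. A gene is called where the authors marked it as significant in their deposited table, at a q-value of at most 0.05. Such calls compare these groups, and the depth is unknown. Whether the 2 libraries of a title entered the authors' test separately is not stated. Both times share 1 control for which no time is given, so Dex and time in culture cannot be told apart. In bulk RNA, fewer cells of a type and less RNA per cell cannot be told apart. Levels are FPKM, which counts fragments per length of transcript and per size of library, with 1 value per group. Folds are log2 ratios to the control. The value after ± is an approximate standard error (SE), obtained here by dividing the absolute fold by the deposited statistic. It is not a spread between replicates, and calls rest on the deposited q-values, not on it. Deposited p-values can be smaller than a normal reading of fold over SE would give. For Chst3 at 1 h, 0.79 ± 0.36 stood beside p = 0.00185 in the authors' test.

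Cardiomyocyte markers were the most abundant of the marker lists, with summed levels of 28437, 27092 and 23660 FPKM in the control, 1 h and 24 h groups and none of the 8 at 0. Of these 8 only Myl2 was called, at 24 h, where it stood at 2456 FPKM against 8776 in the control, and the median log2 fold of the 8 was 0.10. Smooth muscle and pericyte markers summed to 8780, 7634 and 9568 FPKM. Fibroblast markers summed to 6329, 6160 and 5231 FPKM, with Col1a1 listed at 0 in the control. Fibroblast, macrophage, smooth muscle and erythroid markers had no gene with an upstream region. Endothelial markers had 2, Eng and Pecam1. The summed endothelial level was 155, 153 and 228 FPKM and that of macrophage markers 126, 133 and 198 FPKM. At 24 h, 4 of the 8 endothelial and 3 of the 8 macrophage markers were called higher, beside 4.18% of all tested genes. Of the 8 smooth muscle and pericyte markers 2 were called higher and 1 lower, and of the 8 fibroblast markers 1 higher. Summed erythroid markers stood at 90.4, 182 and 194 FPKM, with 3 of 3 tested called higher at 1 h and 3 of 4 at 24 h. The part of these cells in the values below, at either time, was not tested.

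Among the members were 17 regions upstream of 15 miRNA genes, whose mature RNAs repress messages through their seed, bases 2 to 8. RNA of this size class was not measured, so the sequences are shown to identify these regulators and not for any change in them. The table of RefSeq miRNAs (build GRCr8) held 12 of the 15 genes with 22 mature sequences, and no pair of these shared a seed. Mature RNAs of the miRNA genes with the highest regions are printed 5′ to 3′ with the seed in capitals. Of the same genes, rno-miR-3558-3p and rno-miR-211-3p are not printed.
rno-miR-21-5p: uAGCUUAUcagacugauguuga
rno-miR-21-3p: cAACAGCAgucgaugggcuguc
rno-miR-3558-5p: cCAUAGAAgucaucccacagugcc
rno-miR-349: cAGCCCUGcugucuuaaccucu
rno-miR-211-5p: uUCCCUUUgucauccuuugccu
rno-miR-23a-3p: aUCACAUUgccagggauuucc
The seed of rno-miR-211-5p is also that of rno-miR-204-5p, and rno-miR-23a-3p shares its seed with rno-miR-23b-3p. Mir21, an miRNA gene known in cardiac fibrosis and stress, had 2 upstream regions, at −3100 bases with a height of 43.9 and at −7173 bases with a height of 24.2. Both lay inside the locus of Vmp1, which encodes a membrane protein of autophagy. Vmp1 messages stood at 55.4, 89.6 and 96.0 FPKM in the control, 1 h and 24 h groups. Vmp1 was called higher at both times in the authors' deposited table, by 0.69 ± 0.31 (log2, SE; q = 0.0441) at 1 h and by 0.79 ± 0.31 (q = 0.0191) at 24 h. Of all tested genes 0.622% were called higher at 1 h and 4.18% at 24 h. Other miRNA members overlapped the loci of Aatk, Mib1, Ppargc1b and Ttc7a, which were tested and not called at either time. Trpm1, around the Mir211 member, was not tested.

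The members' own DNA was not read, since no genome of the files' build, rn5, was used here. As context for the genes below, the 250 bases before the RefSeq start (GRCr8) are printed for the genes under the pair of highest members. Both windows are on the plus strand of GRCr8, and capitals mark a match to a GR half-site, AGAACA or TGTTCT.
Crispld2 promoter, chr19:64978706-64978955: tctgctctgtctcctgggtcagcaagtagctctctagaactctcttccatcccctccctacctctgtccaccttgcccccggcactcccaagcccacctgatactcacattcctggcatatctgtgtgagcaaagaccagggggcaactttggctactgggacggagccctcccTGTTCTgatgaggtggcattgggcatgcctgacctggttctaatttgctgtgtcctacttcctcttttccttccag
Klf9 promoter, chr1:230126396-230126645: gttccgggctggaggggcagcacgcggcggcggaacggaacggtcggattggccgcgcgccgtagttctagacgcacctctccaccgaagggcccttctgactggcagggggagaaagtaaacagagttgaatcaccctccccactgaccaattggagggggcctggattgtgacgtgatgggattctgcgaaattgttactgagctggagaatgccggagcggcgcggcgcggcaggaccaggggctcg
The Crispld2 window held 1 half-site, starting at −76, and the Klf9 window none. Over all 33469 promoters in the table, 17.5% held a half-site on either strand, against 52 of 492 promoters (10.6%) of genes with an upstream member. The full palindromic element (GNACA, any 3 bases, TGTNC) was in 0.373% of all promoters and in 3 of these 492. The members themselves lie outside these windows.

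The members lay between −1002 and −10206 bases from the start, with a median of −4404 bases. The height of a region is the authors' highest average tag value, a signal from a ChIP experiment of another series, and its ratio is the deposited log2 of Dex over a control that the header names DMSO. Heights ran from 11.7 to 122 with a median of 21.4. Regions within 1 kb of a start, which number 3822, had a median height of 19.7. The median was 21.5 for the 916 regions from 1 to 10 kb downstream and 23.3 for the 2890 beyond 10 kb downstream. The median log2 ratio was 2.72 upstream, 1.85 within 1 kb, 2.80 from 1 to 10 kb downstream and 3.22 farther downstream. By both values the upstream regions lay between the start-proximal and the far downstream regions and close to the nearer downstream ones. A CpG island was annotated in 33.6% of the upstream members, in 93.3% of the regions within 1 kb, and in 25.9% and 5.22% of the nearer and farther downstream regions.

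**Figure D1:**
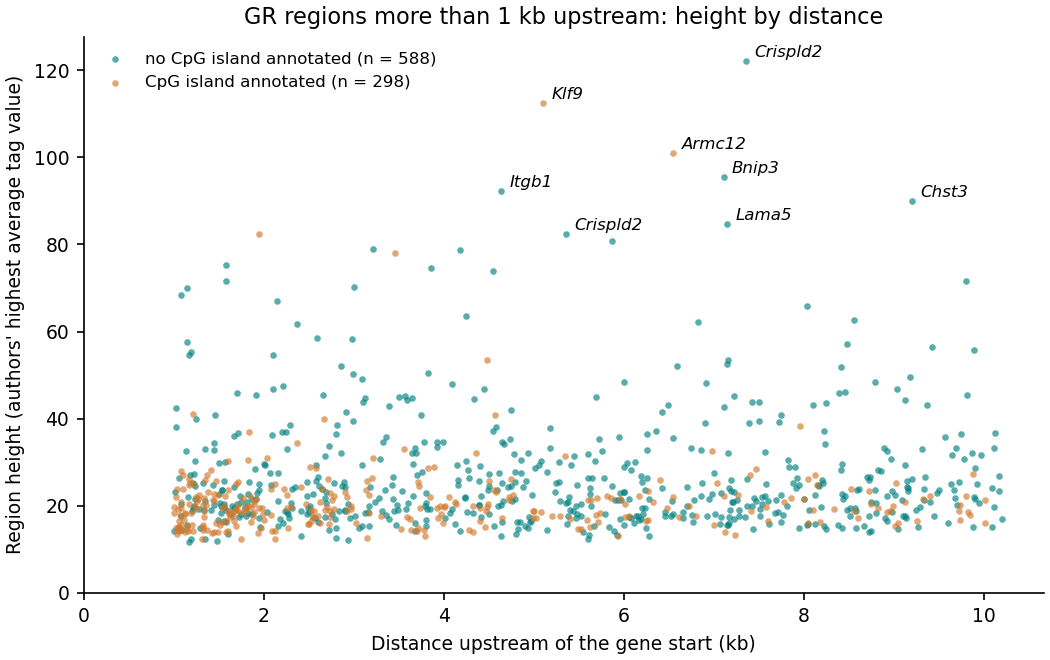
Each point is 1 of the 886 upstream regions, with its distance to the gene start in kb and its height, and colour shows whether a CpG island is annotated. Most heights sit near 20 at every distance, and regions above a height of 50 occur from close to 1 kb to almost 10 kb, with names at those of the 10 tallest whose genes are not LOC symbols.

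Within the class, height changed little with distance. The 199 members between 1 and 2 kb had a median height of 19.9, the 307 between 2 and 5 kb 22.0 and the 380 farther out 21.7, and Spearman's rho between distance and height was 0.11 over the 886 members. The median log2 ratio went up over these bins, from 2.34 to 2.69 and 2.94. CpG islands thinned out with distance, from 55.8% to 33.2% and 22.4% in the same bins. The 298 members with an island had a median height of 19.5 and a median log2 ratio of 2.07. The 588 without one had a median height of 23.0 and a ratio of 3.11. At the limit itself the closest members were at Nr2f6 (−1002 bases, height 18.3), Morc1 (−1005, 14.1) and Zswim6 (−1006, 19.6). Just outside it stood regions at Qk (−994, 20.2), Cacna1h (−994, 23.2) and Efr3b (−992, 17.4), so heights on both sides of the limit overlapped. The farthest members were at Klf13 (−10206), Fcnb (−10168) and Cacna1c (−10165).

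Of the 886 members, 706 had a paired row in the expression table and 180 had none, 92 of these at LOC or RGD symbols. The paired rows were 611 genes, of which 535 had 1 member, 60 had 2, 13 had 3 and 3 had 4. For 327 of these genes no region of another class was assigned to them as nearest gene, and 284 had one too. The authors tested 538 of the 611 genes at 1 h and 543 at 24 h.

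Genes with an upstream member were called more often than genes at large, mostly as higher. Across all genes, 0.863% of 11582 were called at 1 h and 6.22% of 11673 at 24 h. With an upstream member, 22 of 538 genes (4.09%, exact Clopper-Pearson 95% interval 2.58 to 6.13) were called at 1 h and 71 of 543 (13.1%, 10.4 to 16.2) at 24 h. These intervals cover counting error only. At 1 h 15 were called higher (2.79%, all genes 0.622%) and 7 lower (1.30%, all genes 0.242%). At 24 h 60 were called higher (11.0%, all genes 4.18%) and 11 lower (2.03%), the latter share at its background of 2.04%. Genes without an upstream member were called at 0.706% and 5.88%. The median log2 folds of the paired genes over FPKM plus 1 were −0.01 at 1 h and 0.05 at 24 h against 0.00 and 0.00 over all genes. Most genes with an upstream GR region, 516 at 1 h and 472 at 24 h, were tested and not called.

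**Figure D2:**
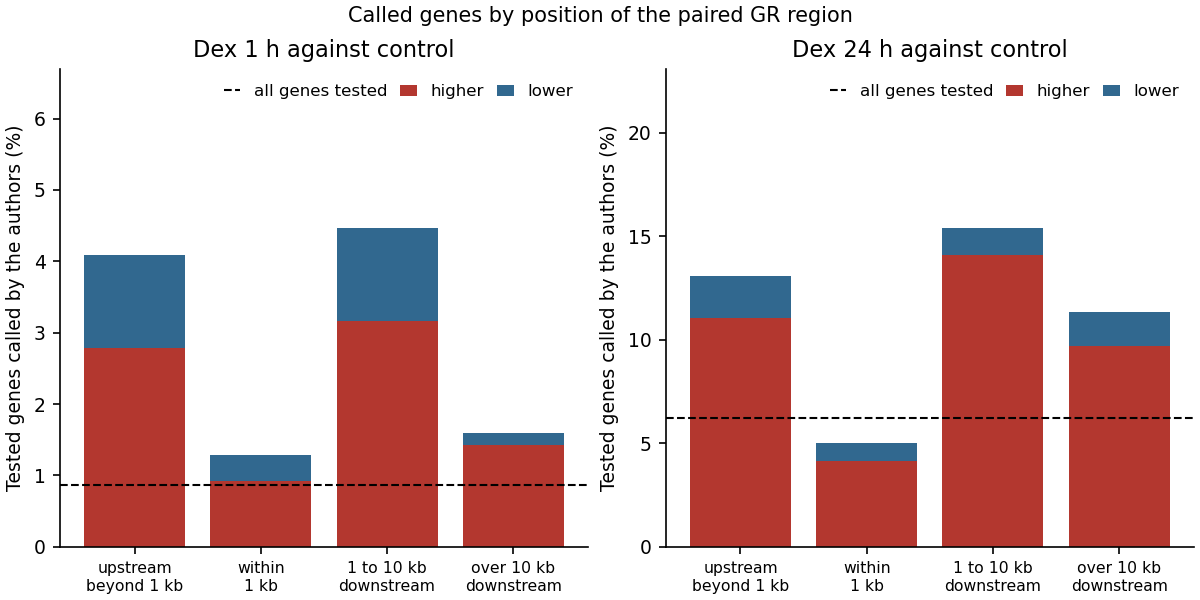
Bars give the percent of tested genes called by the authors as higher (red) or lower (blue) after 1 h and 24 h of Dex, by position of the region, and the dashed line is the percent over all genes tested. The upstream bar stands at 4.09% and 13.1%, above the line and near the bar for 1 to 10 kb downstream, while genes with a region within 1 kb stand at 1.29% and 4.99%.

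Position classes differed in these shares. Genes with a region within 1 kb were called at 1.29% (38 of 2946) at 1 h and at 4.99% (147 of 2945) at 24 h. Genes with a region from 1 to 10 kb downstream were called at 4.46% and 15.4%, and those farther downstream at 1.60% and 11.4%. One gene can stand in several classes, and these shares were not tested against each other. Genes whose regions were all upstream were called at 2.63% (7 of 266) at 1 h and 12.6% (34 of 269) at 24 h. Those with other regions as well were called at 5.51% (15 of 272) and 13.5% (37 of 274).

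Height, which played no role in choosing the members, went along with calls at 24 h. By quartile of the highest member per gene, 4.38% (6 of 137), 9.86% (14 of 142), 14.6% (20 of 137) and 24.4% (31 of 127) of genes were called at 24 h. Of all tested genes 6.22% were called at 24 h, so the lowest quartile lay below that share. In the top quartile, above a height of 27.9, 29 of the 31 were higher. At 1 h the quartiles held 1.47%, 4.23%, 5.93% and 4.80%, beside 0.863% of all tested genes. Median control levels in the quartiles were 15.4, 18.5, 16.9 and 17.7 FPKM. At a height of 50 or more, 13 of 27 tested genes (48.1%) were called at 24 h and 5 of 25 (20.0%) at 1 h, and all of these calls were higher. Genes with 2 or more members were called at 28.6% (20 of 70) at 24 h and genes with 1 member at 10.8% (51 of 473). Members without a CpG island sat at genes called at 17.2% (61 of 354) at 24 h. Those with an island sat at genes called at 6.47% (13 of 201), near the 6.22% of all tested genes. Members with a CpG island were also the lower ones, as given above, and the separate parts of height, number of regions and CpG annotation were not tested. Spearman's rho between the highest member and the log2 fold was 0.19 at 1 h and 0.22 at 24 h over the tested genes, a weak relation.

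**Figure D3:**
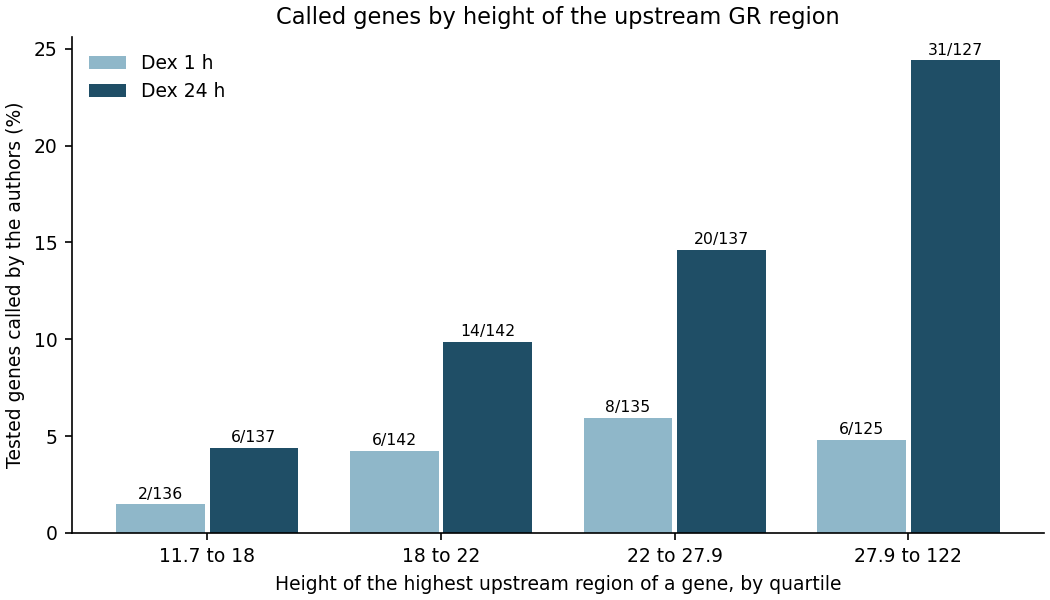
Bars give the percent of tested genes called at 1 h and 24 h in each quartile of the height of the gene's highest upstream region, with called over tested genes above each bar. At 24 h the share goes from 4.38% in the lowest quartile to 24.4% in the highest, and at 1 h from 1.47% to 4.80%. Over all tested genes the shares are 6.22% at 24 h and 0.863% at 1 h.

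The highest members stood at genes with very different readouts. Crispld2, which encodes a secreted glycoprotein known as a glucocorticoid target, carried 4 members. They had heights of 122, 82.3, 49.7 and 29.3 at −7355, −5357, −9184 and −2579 bases, and the highest of all 886 was the first. Its level was 12.6 FPKM in the control, 17.4 at 1 h and 62.4 at 24 h. Only the 24 h value stood apart, called higher by 2.30 ± 0.31 (q = 0.00238), while the 1 h fold of 0.46 ± 0.32 was not called (q = 0.458). Klf9, a Krüppel-like transcription factor and known GR target, had the second highest member (112 at −5104 bases). Klf9 rose from 17.2 to 43.0 FPKM at 1 h and stood at 50.9 at 24 h, both called (1.32 ± 0.32 and 1.57 ± 0.32, q = 0.00238 each).

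The third highest member (101 at −6549 bases) was assigned to Armc12, an armadillo repeat gene listed at 0, 0 and 0.0120 FPKM in the 3 groups. The closest called locus on its chromosome was Fkbp5, at 39.7 kb from the region. Fkbp5 encodes a co-chaperone of GR that is a standard glucocorticoid target. Its level was 8.97, 16.8 and 57.7 FPKM, called higher at 1 h (0.90 ± 0.33) and at 24 h (2.69 ± 0.32, q = 0.00238 each). Fkbp5 was singled out after its values were seen, and which gene the region acts on was not tested. Bnip3, a mitophagy receptor, had the fourth highest member (95.5 at −7108 bases) at levels of 32.2, 41.6 and 46.1 FPKM, and it was not called at either time.

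The next highest members at named genes were those of Itgb1, Chst3 and Lama5. Itgb1, the beta-1 integrin subunit, had a member of 92.2 at −4639 bases with the highest log2 ratio of all, 6.53. Its level was 1092 FPKM in the control, 1336 at 1 h and 2067 at 24 h, and the 24 h value was called higher (0.92 ± 0.32, q = 0.00238). Lama5, a laminin chain of basement membranes, had a member of 84.8 and went from 36.9 and 34.4 to 72.7 FPKM, called at 24 h (0.98 ± 0.31). Chst3, a sulfotransferase of chondroitin chains, had a member of 89.9 at −9204 bases. Its level was 9.37, 16.2 and 16.0 FPKM, called at 1 h (0.79 ± 0.36, q = 0.0471) and not at 24 h (0.77 ± 0.36, q = 0.0612), with nearly equal folds. The remaining 2 of the 10 highest members were at LOC symbols without an expression row.

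Strong regions also stood at genes that were not called. Smox, spermine oxidase, and Colq, the collagen-like tail subunit of acetylcholinesterase, had log2 ratios of 5.48 and 5.32, among the 5 highest. Smox stood at 5.41, 4.97 and 4.79 FPKM and Colq at 12.1, 12.6 and 12.4 FPKM. Cic, a transcriptional repressor, had 4 members up to a height of 46.8 and levels of 41.7, 37.4 and 38.0 FPKM. Ltbp2, a latent TGF-beta binding protein, had 4 members and levels of 124, 115 and 148 FPKM. None of these was called, so of the 3 genes with 4 upstream regions only Crispld2 was. The lowest log2 ratios were 0.44 at Ankhd1, 0.61 at Birc2 and 0.71 at Mgat1, genes that were not called at either time.

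Per1 and Nfkbia had the highest called folds at 1 h over FPKM plus 1. Per1, a repressor of the circadian clock, had 3 members with heights of 78.1, 55.2 and 17.3 and went from 8.02 to 45.0 FPKM. It was called higher by 2.49 ± 0.32 at 1 h and by 2.19 ± 0.32 at 24 h (36.5 FPKM). Nfkbia, the inhibitor of NF-kB, went from 16.3 to 54.6 FPKM (1.74 ± 0.33) and stood at 35.8 at 24 h (1.13 ± 0.33). Errfi1, an inhibitor of EGF receptor signalling, went from 20.6 to 56.7 and 40.3 FPKM, and Pfkfb3, which drives glycolysis through fructose 2,6-bisphosphate, from 6.45 to 19.1 and 15.9 FPKM. Both were called higher at both times. All 4 stood higher at 1 h than at 24 h, and for none of them was the step from 1 h to 24 h called.

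Other genes rose at 1 h and did not stay up. Cish, a suppressor of cytokine signalling through STAT5, stood at 9.48, 20.4 and 11.4 FPKM, called at 1 h (1.11 ± 0.35) and not at 24 h (0.27 ± 0.36). Relt, a receptor of the TNF receptor superfamily, stood at 2.80, 6.00 and 3.28 FPKM. For both, 24 h was called lower than 1 h, in a comparison with the same 1 h sample. Cyb561, a cytochrome b561 of secretory vesicles, behaved otherwise, going from 0.623 to 2.39 and 6.28 FPKM with all 3 pairs of groups called. Mt2A, a metallothionein that binds metal ions, went from 30.0 to 55.5 and 80.1 FPKM, called at both times. Sox8, a transcription factor, was low throughout, at 0.220, 1.13 and 0.853 FPKM, and was called at both times.

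At 1 h 7 genes were called below control. Ier3, an early response gene, went from 109 to 49.3 FPKM (−1.14 ± 0.32) and Hes1, a repressor downstream of Notch, from 34.5 to 15.5 FPKM (−1.16 ± 0.33). Junb went from 39.9 to 23.5 FPKM (−0.76 ± 0.32, q = 0.0204) and Egr1 from 42.2 to 25.7 FPKM (−0.71 ± 0.32, q = 0.0491). Arid5a, an RNA-binding protein that stabilises cytokine messages, went from 12.4 to 6.78 FPKM, and Irf1, a transcription factor of interferon responses, from 11.0 to 6.36 FPKM. At 24 h these 6 stood at 76.0, 29.2, 43.0, 43.3, 9.48 and 7.53 FPKM and none of them was called. The seventh, LOC310926, fell from 73.9 to 35.5 and 27.0 FPKM and was called at both times, but its locus or symbol is shared with another row and its values are uncertain. The calls at 24 h against 1 h, which use the same 1 h sample, included Hes1, Junb and Egr1, all higher.

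**Figure D4:**
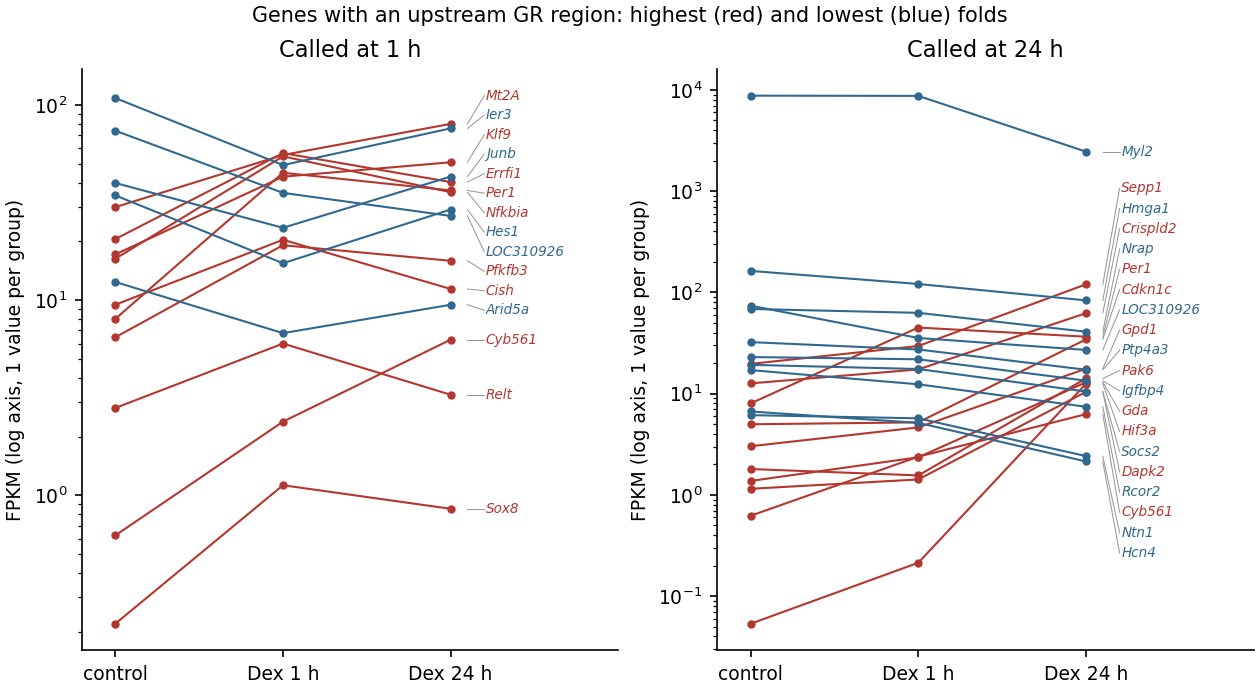
Lines join the FPKM of each group, 1 value per group on a log axis, for the genes with the highest (red) and lowest (blue) called folds at 1 h (left) and at 24 h (right). Per1 goes from 8.02 to 45.0 FPKM within 1 h, while Hif3a goes from 0.0534 to 12.5 and Myl2 from 8776 to 2456 FPKM by 24 h.

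At 24 h the highest folds were of genes that had not been called at 1 h, apart from Per1 and Cyb561. Hif3a, a hypoxia-inducible factor subunit that can oppose the others, had 2 members (75.2 and 34.6) and was listed at 0.0534, 0.214 and 12.5 FPKM, with no test at 1 h. Over FPKM plus 1 its 24 h fold was 3.68 (q = 0.0423), and the plain ratio is not given because the control is close to 0. Cdkn1c, an inhibitor of cyclin-dependent kinases, went from 4.98 and 5.21 to 34.4 FPKM (2.79 ± 0.36). Crispld2 belongs to the same set. For Hif3a, Cdkn1c and Crispld2 the 24 h level lay far above the control and 1 h levels. At 1 h Cdkn1c stood near control, Crispld2 was higher without a call, and Hif3a was still close to 0.

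The other genes of this set included 2 kinases. Gda, guanine deaminase, stood at 1.37, 2.35 and 13.0 FPKM (3.24 ± 0.45 at 24 h), and Gpd1, the cytosolic glycerol-3-phosphate dehydrogenase, at 3.03, 4.64 and 17.7 FPKM (2.54 ± 0.37). The kinases Pak6 and Dapk2 went from 1.80 and 1.15 FPKM in the control to 14.1 and 10.4 FPKM at 24 h (2.97 ± 0.39 and 3.18 ± 0.48). Sepp1, the selenium carrier selenoprotein P, now named Selenop, went from 19.7 and 29.6 to 120 FPKM (2.61 ± 0.32), with a locus or symbol shared with another row. For each of these 5 genes the authors' own comparison of 24 h with 1 h was called higher. That comparison uses the same 24 h sample by which these genes were picked, so it is no separate support.

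The 11 genes called lower at 24 h, 2.03% of those tested against 2.04% of all genes, included Myl2, Hcn4 and Nrap. Myl2, the ventricular regulatory myosin light chain, had a member of 28.9 at −7906 bases. It stood at 8776, 8731 and 2456 FPKM, a fall of −1.84 ± 0.30 (q = 0.00238) at 24 h. Hcn4, the main channel of the pacemaker current, went from 6.67 and 5.15 to 2.14 FPKM (−1.64 ± 0.38). Nrap, an anchor protein of growing myofibrils whose locus or symbol is shared, went from 68.7 and 62.9 to 40.9 FPKM. Myl2 and Hcn4 were called lower at 24 h than at 1 h, in a comparison with the same 24 h sample.

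Further calls below control at 24 h were of varied function. Ntn1, the guidance cue netrin-1, went from 6.14 to 2.42 FPKM (−1.34 ± 0.42). Hmga1, a chromatin protein of proliferating cells, went from 163 to 83.4 FPKM. Ptp4a3, a phosphatase, went from 32.3 to 17.2 FPKM, Socs2, a suppressor of cytokine signalling, from 19.3 to 10.5 FPKM, and Igfbp4, which binds insulin-like growth factors, from 23.0 to 13.4 FPKM. Rcor2, a corepressor, went from 17.1 to 7.42 FPKM, but its region and its expression row lie on different chromosomes in the files, so that pairing is doubtful.

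**Figure D5:**
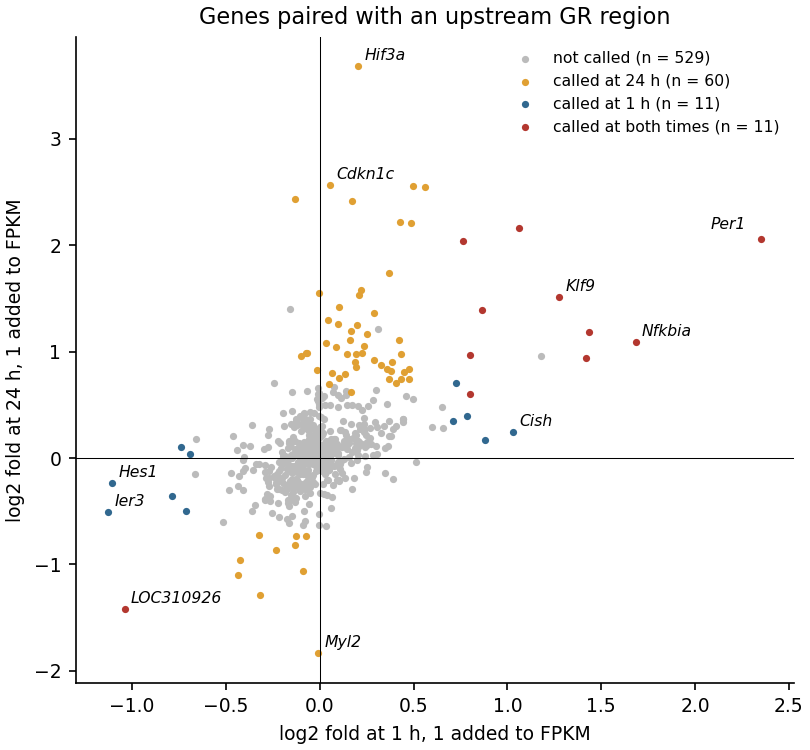
Each point is a gene with an upstream region, with its log2 fold (1 added to FPKM) at 1 h on the x axis and at 24 h on the y axis, coloured by the authors' calls. The axes share the control sample, 11 genes are called at both times, 60 at 24 h and not at 1 h, and 11 at 1 h and not at 24 h. The shares of all genes with these patterns were not computed.

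Calls at both times fell on 11 paired genes, a count for which the share over all genes was not computed. These were Cyb561, Errfi1, Klf9, Mt2A, Nfkbia, Per1, Pfkfb3, Slc28a2, Sox8 and Usp53, all higher, and LOC310926, lower. Slc28a2, a nucleoside transporter, stood at 1.56, 3.35 and 9.50 FPKM, and Usp53, a member of the ubiquitin-specific peptidase family, at 4.97, 9.39 and 10.7 FPKM. The 24 h and 1 h groups were compared directly by the authors, who called 49 of 543 paired genes (9.02%, all genes 4.92%). At 24 h 43 were higher (all genes 3.31%) and 6 lower (all genes 1.61%).

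Classical GR targets were often called higher, in the whole list as among those with an upstream member. Of 40 entries, 10 had an upstream member (Bcl6, Cdkn1c, Dusp1, Errfi1, Hif3a, Klf9, Mt2A, Nfkbia, Per1 and Zfp36). At 1 h, 5 of 9 tested were called higher and at 24 h 8 of 10, none lower. Of all tested genes 0.622% were called higher at 1 h and 4.18% at 24 h. The whole list had 18 of 35 and 23 of 37 called higher, and the shares with and without an upstream member were not tested against each other. The lists were drawn up from known biology with earlier results of these data at hand. Zfp36, which destabilises cytokine messages, went from 40.4 to 56.6 and 68.2 FPKM and was called at 24 h. Dusp1, a MAP kinase phosphatase, had 2 members (up to 42.4) and stood at 57.4, 62.2 and 69.1 FPKM without a call, and Bcl6, a repressor, at 9.12, 12.8 and 11.8 FPKM.

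Of 25 immediate early genes, 10 had an upstream member. At 1 h, 3 of these 10 were called lower (Ier3, Junb and Egr1) and 7 were not called. The whole list had 5 lower of 25, and 0.242% of all tested genes were called lower. Whether the shares of list genes with and without a member differed was not tested. At 24 h none of the 10 was called, against 3 higher and 1 lower of 25. Fos, a subunit of AP-1, had 3 members up to a height of 46.7 and stood at 8.98, 11.9 and 10.5 FPKM. Fosl2 and Dusp6 stood at 25.7, 30.4 and 30.8 FPKM and at 17.4, 27.9 and 24.8 FPKM, without a call. The direction of the 1 h calls in this list was lower, that of the GR target list higher.

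Counts of calls among contractile, ion-handling and hypertrophy genes were too small to read against the 6.22% of all genes called at 24 h. Of 6 sarcomere genes (Csrp3, Ldb3, Myh7, Myl2, Tnnt2 and Tpm1) only Myl2 was called, at 24 h, and the whole list had 2 higher and 1 lower of 20 at 24 h. Tpm1, tropomyosin, with a member of 52.1, stood at 2771, 2720 and 3080 FPKM. Myh7, the beta myosin heavy chain, with a member of 74.6, stood at 1672, 1532 and 1771 FPKM, and its reads may be split with a row sharing its locus or symbol. Of 6 calcium and ion channel genes only Hcn4 was called, at 24 h, where the whole list had 3 higher and 5 lower of 24. Atp2a2, the sarcoplasmic calcium pump, had a member of 57.0 and stood at 463, 468 and 391 FPKM, and Pln, its inhibitor phospholamban, had 3 members and stood at 350, 429 and 443 FPKM. None of 7 hypertrophy genes was called, against 2 higher of 21 in the whole list at 24 h, among them Nppb, the B-type natriuretic peptide, with a member of 45.3 and levels of 1369, 1180 and 1334 FPKM, and Ankrd1, a titin-binding stress protein, at 2349, 2062 and 2893 FPKM.

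Metabolic, immune and survival lists held few members, again too few to read against the share of all genes. Of 5 glucose and insulin genes Pfkfb3 alone was called, higher at both times, and of 4 clock genes Per1 alone. At 24 h the whole lists had 3 higher and 1 lower of 24, and 3 higher and 3 lower of 14. Of 3 fatty acid genes none was called (whole list at 24 h 4 higher and 1 lower of 25), with Ucp2, a mitochondrial carrier, at 95.0, 81.6 and 87.1 FPKM and Cpt1a, the gate of fatty acid entry into mitochondria, at 16.3, 15.5 and 17.9 FPKM. Of 4 atrophy and autophagy genes Foxo3, a forkhead factor of that programme, was called higher at 24 h (7.91, 11.4 and 14.9 FPKM; 0.92 ± 0.33, q = 0.00785), and the whole list had 3 higher and 1 lower of 21. Of 3 apoptosis genes none was called, and of the whole list 1 of 18 was at 24 h. Pecam1, the endothelial adhesion molecule, had a member of 22.8 and went from 9.33 and 10.1 to 26.7 FPKM (1.52 ± 0.34 at 24 h), beside the higher summed endothelial level given above.

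Several genes outside the rule for named genes were singled out after their values were seen. Nr3c1, which encodes GR itself, had 3 members of 22.1, 18.9 and 14.4 between −1842 and −3784 bases. It stood at 19.7, 19.6 and 13.3 FPKM and was not called, with a locus or symbol shared with another row. Hsd11b1, which regenerates active glucocorticoid, went from 12.7 and 14.3 to 30.2 FPKM and was called at 24 h (1.25 ± 0.34). Lgals3, galectin-3, had 2 members and went from 129 and 129 to 381 FPKM (1.56 ± 0.31). Adm, the vasodilator peptide adrenomedullin, went from 27.3 and 36.9 to 60.1 FPKM (1.14 ± 0.33). All 3 of the genes after Nr3c1 were called at 24 h and not at 1 h.

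The pairing of a region with a gene is positional. Of the members with an expression row, 639 (90.5%) had a locus end at the stated distance within 10 bases and 67 did not. The locus of a further gene, or of several, overlapped 69 members (7.79%), and for 6 of these members any such gene was called at 24 h. Of all tested genes 6.22% were called at 24 h. The count of 6 is of members and not of genes, and it was not tested against that share. Rows sharing a symbol or a locus with another row made up 50 of the 611 paired genes.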

How the data were processed

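The authors deposited FPKM values for 17450 gene rows, 1 for each group. The submitters' processing notes name TopHat, Cufflinks, Cuffdiff and the build rn5, with neither versions nor roles. Per the file headers, a test statistic (used as a score), a p-value and a q-value were deposited for each pair of groups; the smallest deposited p-value was 5e-05. Region height is a signal deposited by the authors, and its log2 ratio was deposited with it. For peak caller and ChIP normalization nothing was given in the sources used. Its 6 per-sample columns were not used.

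Computed here (Python 3.11.15, pandas 2.3.3, numpy 2.4.6, scipy 1.17.1, matplotlib 3.10.9) were the nearest row per region, the join by gene identifier, counts of calls, log2 ratios of FPKM for named genes, and log2 ratios with 1 added for medians and ranks. All 9281 sheet rows with an identifier equalled the expression table. The counting steps were tested on simulated data. No source used here says whether the 2 libraries of a title came from separate cultures.

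The members and the 18 gene lists were chosen with earlier results of these data known. Named genes were the called paired genes with the 10 highest and 5 lowest folds at 1 h and the 10 highest and 10 lowest at 24 h (FPKM of 1 or more in any group). The rule added the 10 highest regions, the extremes of ratio and distance, the 5 genes with most members, and from each list up to 4 called members or the 2 of highest FPKM. Not every gene that the rule picked is reported here. Alternatives were other distance limits, every gene of a region, genes with upstream regions alone, an FPKM minimum of 1, a 1.5-fold minimum, a stricter q-value (0.01), shared rows left out, nothing added to FPKM, and, chosen after seeing the data, matching locus ends.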

Additional observations from a re-analysis of the deposited data

Results flagged for a closer look

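For the following genes with an upstream region the authors' own test of 24 h against 1 h called the 2 levels different, so that the effect against the shared control differed between the times. Most of these genes were picked by their folds against control. The test uses the same 1 h and 24 h samples, so its calls are no separate support. The values are log2 ratios of FPKM, 24 h over 1 h. Higher at 24 h were Hif3a (5.87, with FPKM under 1 at 1 h), Pak6 (3.18), Dapk2 (2.88), Cdkn1c (2.72), Gda (2.46), Sepp1 (2.02), Gpd1 (1.93), Crispld2 (1.85), Pecam1 (1.40), Cyb561 (1.40) and Lama5 (1.08). Hes1 (0.91), Junb (0.87) and Egr1 (0.75), each called below control at 1 h, were higher at 24 h as well. Lower at 24 h were Myl2 (−1.83), Hcn4 (−1.27), Ntn1 (−1.24), Rcor2 (−0.74, with doubtful pairing), and Relt (−0.87) and Cish (−0.84), both called above control at 1 h.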

How the results depend on the processing

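Of 92 values recomputed under 13 alternatives, 63 stayed within their limits and 29 moved. A count moved when it differed more than 1.5-fold from the main count, whatever the number of tested genes. Any other value moved when it lay outside the 95% interval of the main value. A limit of 2000 bases gave a median log2 ratio of 2.81 and 4 genes called lower at 1 h. A limit of 10000 bases left 10 regions (median height 22.3, log2 ratio 3.51) and 8 tested genes. Of these 12.5% were called at 1 h (1 higher, 0 lower) and 25.0% at 24 h (2 higher, 0 lower), with median folds of 0.14 and 0.28, so that the 1 h median changed sign from −0.01. Taking every gene of a region gave 1488 regions (median height 20.6, log2 ratio 2.34). Their genes were called at 2.31% and 8.95%, with 19 lower and a median fold of 0.0005 at 24 h. Genes with upstream regions alone gave 5 higher and 2 lower of 266 tested at 1 h and 28 higher and 6 lower of 269 at 24 h. Their median fold at 24 h was 0.0127. The percents called in this smaller set, 2.63% and 12.6%, stayed within their limits. A q-value of at most 0.01 gave 10.1% at 24 h (all genes 4.21%), 3 lower at 1 h and 6 lower at 24 h. With nothing added to FPKM the median fold at 1 h was −0.0259. No paired analysis was possible because each group is 1 sample, and for the same reason no replicate could be left out. Depth is unknown, the errors rest on the authors' statistic, and the 1 h calls of Chst3, Egr1, Mt2A and Irf1 lie between q-values of 0.0471 and 0.0499, close to the limit of 0.05.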
